A study of Bos taurus with 4 samples.

Results

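The ZNF zinc finger genes are described here as the probes of a bovine expression array whose gene name is ZNF followed by digits and, in some names, 1 letter. This rule found 520 probes of 255 gene names among the 51282 sample probes of 32429 gene names on the array, and it used no signal. The RNA came from spermatozoa of Murrah buffalo bulls in breeding service, of which one group was labelled high fertile and the other low fertile from their conception rates, and the labels name no treatment or age. Each group held 2 pools of RNA from 2 bulls each, purified on Percoll and hybridized with 1 dye to 4 arrays of 1 slide, and which bulls went into which pool is not given in the sources used here. The question of the design was whether transcript levels in spermatozoa differed between low-fertile and high-fertile bulls. The probes were designed on cattle sequence and the RNA was from buffalo, so a probe can be dim through a mismatch to buffalo as well as through a low transcript level, and these cannot be told apart.

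C2H2 zinc finger proteins bind DNA, and in some cases RNA, through repeated fingers in which a zinc ion is held by cysteine and histidine residues. Many ZNF proteins carry a KRAB domain, which recruits the co-repressor TRIM28 and the histone methyltransferase SETDB1 and silences retrotransposons and other genes in the germ line and early embryo. Others carry a SCAN domain for pairing or no known partner domain. Spermatozoa make almost no new transcripts, so the RNA they hold is left largely from earlier stages of spermatogenesis, and ZNF genes are among the many regulators transcribed in the testis.

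All 520 probes were 60 bases long. Several sequences are shown first because the results turn on them. The first set holds the 3 brightest ZNF probes and the probe of another gene, with capitals for the run of bases that the ZNF probe shares with a probe of another gene name. The ZNF266 probe, placed at chr7:12823674-12823733 on the forward strand of Btau_3.1, shared 21 bases with a probe of CD300LG, the ZNF33B probe (chr2:69681086-69681145, reverse strand) shared 35 bases with the CPPED1 probe shown (chr25:12506187-12506246, reverse strand), and the ZNF674 probe (unplaced contig 231 of that build, forward strand) shared 23 bases with a probe of CDNF.
ZNF266: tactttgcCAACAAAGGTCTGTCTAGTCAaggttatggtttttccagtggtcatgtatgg
ZNF33B: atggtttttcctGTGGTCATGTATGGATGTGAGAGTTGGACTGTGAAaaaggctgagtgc
CPPED1: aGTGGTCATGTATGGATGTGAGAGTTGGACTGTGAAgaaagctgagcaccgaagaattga
ZNF674: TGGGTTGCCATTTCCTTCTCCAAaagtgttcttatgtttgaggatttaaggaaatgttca

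The second set holds probes of genes with large differences between the groups, with every G and C in capitals, because base composition went with the direction of the difference (below). ZNF75D, ZNF192, ZNF367 and ZNF148 were lower in the low-fertile pools and their probes held 21, 27, 24 and 23 G or C bases. ZNF783, ZNF133 and ZNF653 were higher and their probes held 33, 33 and 32, whereas the probe of ZNF740, also higher, held 22. The placed probes lie at chr23:30596641-30596700 (ZNF192, reverse strand), chr8:87269660-87269719 (ZNF367, reverse), chr1:70869449-70869508 (ZNF148, reverse), chr13:38385445-38385504 (ZNF133, forward) and chr7:14298789-14298848 (ZNF653, reverse). The placements of ZNF783 (chr4:116664504-116667473, forward) and ZNF740 (chr5:29763165-29763807, reverse) span more than the 60 bases of a probe, and the ZNF75D probe lies on an unplaced contig. Exon and intron annotation of Btau_3.1 was not used here.
ZNF75D: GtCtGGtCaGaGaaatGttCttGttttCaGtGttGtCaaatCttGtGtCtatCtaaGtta
ZNF192: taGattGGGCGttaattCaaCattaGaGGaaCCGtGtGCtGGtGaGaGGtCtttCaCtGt
ZNF367: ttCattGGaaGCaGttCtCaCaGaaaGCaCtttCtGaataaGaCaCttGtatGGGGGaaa
ZNF148: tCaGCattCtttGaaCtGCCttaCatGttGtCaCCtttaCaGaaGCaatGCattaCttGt
ZNF783: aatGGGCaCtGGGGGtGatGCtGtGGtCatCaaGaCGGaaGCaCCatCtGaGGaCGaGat
ZNF133: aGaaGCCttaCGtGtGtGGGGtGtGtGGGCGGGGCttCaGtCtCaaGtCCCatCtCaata
ZNF653: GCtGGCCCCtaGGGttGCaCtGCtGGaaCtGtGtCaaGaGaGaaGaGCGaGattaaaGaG
ZNF740: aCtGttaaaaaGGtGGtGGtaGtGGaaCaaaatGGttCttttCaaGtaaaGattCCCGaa

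The third set shows the bases that encode the conserved linker between neighbouring fingers. The motif searched, on both strands, is shown in capitals below; it fixes the first 2 bases of the 5 linker codons (threonine, glycine, an acidic residue, lysine or asparagine, and proline) and leaves the last base of each open. It was present in 10 of 520 ZNF probes (1.92%), in each case on the strand of the probe, and in 33 of all 51282 probes (0.0644%). Of the 10 ZNF probes, 3 could be tested (41.0% over all probes), of which 1 was called higher and 0 lower (9.23% and 17.6% over all tested probes). The ZNF274 probe (chr18:65890726-65890785) was the one called, and the ZNF250 probe was well above background on all 4 arrays and not called.
ZNF274: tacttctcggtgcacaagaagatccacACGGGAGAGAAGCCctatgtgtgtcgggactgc
ZNF250: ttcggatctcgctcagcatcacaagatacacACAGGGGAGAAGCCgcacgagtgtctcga

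The scanner software marked 207 ZNF probes (39.8%) as well above background in high-fertile pool 1 and 210 (40.4%) in high-fertile pool 2. Low-fertile pool 1 showed 229 (44.0%) and low-fertile pool 2 showed 106 (20.4%). Over all probes of the array the shares were 45.4%, 45.3%, 50% and 25.4%, so the ZNF share was below the share of all probes on each of the 4 arrays. Low-fertile pool 2 stood apart in both. On that array the dimmest probe still marked as well above background had a signal of 14.5, whereas the corresponding signals were 8.57 and 8.68 for the high-fertile arrays and 7.41 for low-fertile pool 1. Negative controls on it had a standard deviation of 126, and those of the 3 other arrays 27.8, 10.7 and 1.94. As pairs of arrays, 77 ZNF probes were detected in both high-fertile pools but not in both low-fertile pools, and 3 in the reverse (14.8% and 0.577% of ZNF probes, against 15.9% and 0.663% of all probes). Most of these differences lay in the single pool, since 58 of the 77 were also detected in low-fertile pool 1.

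**Figure D1:**
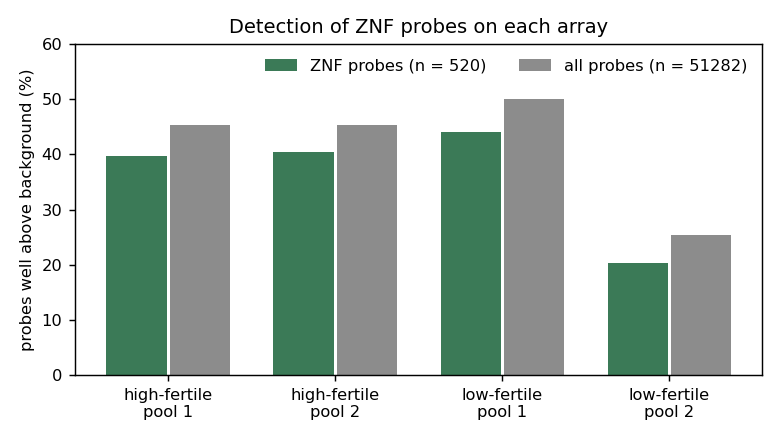
Share of probes marked well above background on each array (percent), for the 520 ZNF probes and for all 51282 probes of the array. The ZNF share is below that of all probes on every array, and low-fertile pool 2 has the lowest share of both, 20.4% and 25.4%.

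Over the 4 arrays, 103 ZNF probes (19.8%, against 24.5% of all probes) were well above background on every array, and 238 (45.8%, against 42.7%) on none. No ZNF probe was saturated. A difference was tested for the 183 probes (35.2%, against 41.0%) that were well above background in both pools of at least 1 group, and these stood for 134 of the 255 genes. The remaining 121 genes had no tested probe. Among the untested probes 99 were detected on at least 1 array, 43 of them in low-fertile pool 1 alone. The levels below are log2 processed signals minus the 75th percentile of the array. Across the 520 ZNF probes the median level was -1.28 and -1.25 for high-fertile and -1.32 and -1.81 for low-fertile RNA, against -1.16, -1.16, -1.16 and -1.43 for all probes.

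In the fit over all 21028 tested probes, 61 of the 183 ZNF probes passed an adjusted p of 0.05 (33.3%, against 26.8% of all tested probes). The low-fertile pools were lower for 50 of them (27.3%, against 17.6%) and higher for 11 (6.01%, against 9.23%). Read as 1 probe a gene, the brightest tested one, 34 of 134 ZNF genes were lower (25.4%, against 16.6% of all genes) and 7 were higher (5.22%, against 9.53%). A probe that qualified through 1 pair alone was selected by its signal in that group, so the 103 probes detected on all 4 arrays are given apart. Among these, 19 were lower (18.4%, against 9.90% of all such probes) and 9 higher (8.74%, against 13.2%). By gene they gave 13 lower of 80 (16.2%, against 9.32%) and 7 higher (8.75%, against 13.2%). The median log2 fold change of the 103 probes, low-fertile minus high-fertile, was 0.04, against 0.15 over all such probes. The other 80 tested ZNF probes had a median of -0.57, against -0.31, with 31 lower (38.8%, against 28.9%) and 2 higher (2.50%, against 3.34%).

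These counts rested on both high-fertile pools, as did the number of calls over all tested probes. Without high-fertile pool 1 the ZNF probes called were 30 lower and 6 higher, and without high-fertile pool 2 they were 30 lower and 4 higher. Without low-fertile pool 1 they were 53 and 10, and without low-fertile pool 2, the pool with the fewest detected probes, 41 and 8. With the methods' t-test, adjusted in the same way, 0 ZNF probes passed, and 63 had an unadjusted p under 0.05. The groups lay in separate rows of the slide, and a row effect cannot be told apart from fertility. With 2 pools on each side, exact permutation of the labels has 0.333 as its smallest two-sided p, so the p-values given are from limma, which borrows the spread of all probes. In bulk RNA, fewer cells of a kind and less RNA per cell cannot be told apart.

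**Figure D2:**
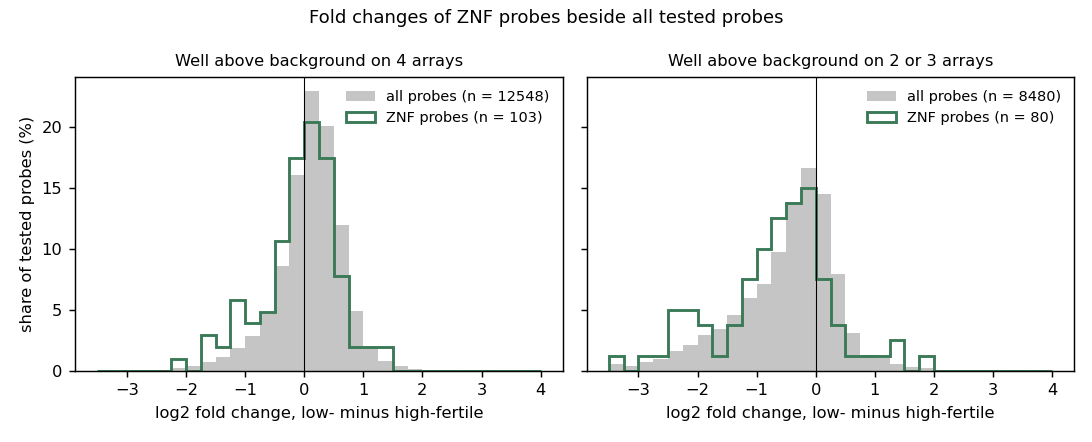
Share of tested probes (percent) in bins of log2 fold change, low-fertile minus high-fertile, for ZNF probes (green line) and all tested probes (grey); values past the ends are in the last bins. Left, probes well above background on 4 arrays (ZNF n = 103), with medians of 0.04 and 0.15; right, probes on 2 or 3 arrays (ZNF n = 80), with medians of -0.57 and -0.31.

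The ZNF genes detected in every pool with the largest decreases are given first. ZNF75D, a Krüppel-type zinc finger protein whose probe is now annotated to LOC614260, had levels of 2.57 and 2.39 in the high-fertile against 0.41 and 0.43 in the low-fertile pools. The difference on the log2 scale was -2.06 ± 0.15 (SE; limma, adjusted p = 0.00220, n = 2 pools a group). A second probe of the gene, 2 bases away, gave -2.13 (adjusted p = 0.00287, limma), with levels of 1.68 and 1.74 against -0.19 and -0.66. ZNF367 had levels of 2.18 and 2.18 against 0.53 and 0.37, a change of -1.73 ± 0.15 (adjusted p = 0.00256, limma). ZNF606, a KRAB zinc finger repressor, had levels of 2.00 and 1.99 against 0.28 and 0.40 and a change of -1.65 ± 0.14 (adjusted p = 0.00268, limma). In these 3 genes the pools of a group lay close together and the groups did not overlap.

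ZNF664 was at 2.06 and 1.85 against 0.61 and 0.52 (-1.39, limma adjusted p = 0.00399). ZNF667, a KRAB protein, was at 2.14 and 2.00 against 0.79 and 0.85 (-1.24, limma adjusted p = 0.00443), and it was the one gene of the 8 named here whose probe held 55% G and C. The other tested ZNF667 probe gave -0.68 and was not called. A further KRAB repressor, ZNF12, was at 1.06 and 1.14 against -0.19 and 0.00 (-1.19, adjusted p = 0.00540). ZNF547, now annotated to LOC512684, was the brightest of the 8, at 3.69 and 3.65 against 2.52 and 2.76 (-1.03, adjusted p = 0.00853), and its second tested probe was also lower (-1.09, adjusted p = 0.0157). The pools of the groups did not overlap in any of these genes, as the rule that named them required.

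ZNF322A, now ZNF322, was measured by 3 tested probes within a short stretch of chromosome 23, shown here because they overlap and were not all called. The probe at chr23:31471607-31471666 and the probe at chr23:31471582-31471641 share the 20 bases in capitals in the first 2 lines, and the probe at chr23:31471641-31471700 shares 26 bases, in capitals in the last line, with the first.
ZNF322A first: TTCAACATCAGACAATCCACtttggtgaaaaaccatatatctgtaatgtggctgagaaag
ZNF322A second: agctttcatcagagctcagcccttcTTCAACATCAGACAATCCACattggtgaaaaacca
ZNF322A last: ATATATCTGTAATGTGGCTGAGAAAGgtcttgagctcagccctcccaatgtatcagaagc
The first probe had levels of 0.16 and 0.45 in the high-fertile against -1.37 and -2.10 in the low-fertile pools, where it was not well above background, and was at least 2.97-fold lower (limma adjusted p = 0.00629). The second and brightest, at 1.86 and 1.89 against 0.84 and 0.76, was lower by the limma test (-1.08, adjusted p = 0.00583). The remaining probe, at 1.20 and 1.07 against 1.53 and 0.21, was not called (-0.27, adjusted p = 0.662), with the low-fertile pools on either side of the high-fertile pools.

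Another group of ZNF genes was detected in both high-fertile pools and in neither low-fertile pool, so that their fold is a lower bound, taken against the lowest signal well above background on each low-fertile array or the probe's own signal where that was higher. They entered the test through the high-fertile pair alone, so their p-values stand for probes selected by the group in which they were high. ZNF192, now ZKSCAN8, a protein with SCAN and KRAB domains, had signals of 121 and 128 in the high-fertile against 14.0 and 9.22 in the low-fertile pools. It was at least 8.21-fold lower (limma adjusted p = 0.00220). Its probe shared 33 bases with a probe that has no gene name, and that probe was called lower too, at levels of 1.39 and 1.26 against -1.76 and -2.30. ZNF226, a KRAB protein, was at least 3.81-fold lower (signals of 50.8 and 72.7 against 15.6 and 6.99, adjusted p = 0.00766). ZNF521, a many-fingered cofactor known from haematopoietic and neural progenitors, was at least 3.76-fold lower (51.9 and 65.9 against 14.8 and 7.02, adjusted p = 0.00581).

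ZNF607, a KRAB protein, was at least 3.53-fold lower (46.7 and 50.8 against 11.7 and 6.01, limma adjusted p = 0.00398). ZNF292, a large DNA-binding protein, was at least 2.59-fold lower (33.1 and 24.5 against 4.84 and 5.93, adjusted p = 0.00347), and a second probe was also lower with a bound of 2.89. ZNF295, now ZBTB21, a BTB-domain protein, was at least 2.54-fold lower (28.3 and 27.6 against 7.38 and 7.28, adjusted p = 0.00235). Apart from ZNF192, these genes had signals of at most 72.7 in the high-fertile pools. ZNF292 and ZNF295 lay below the median of all tested probes there. The low-fertile values of these genes have no order among themselves.

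**Figure D3:**
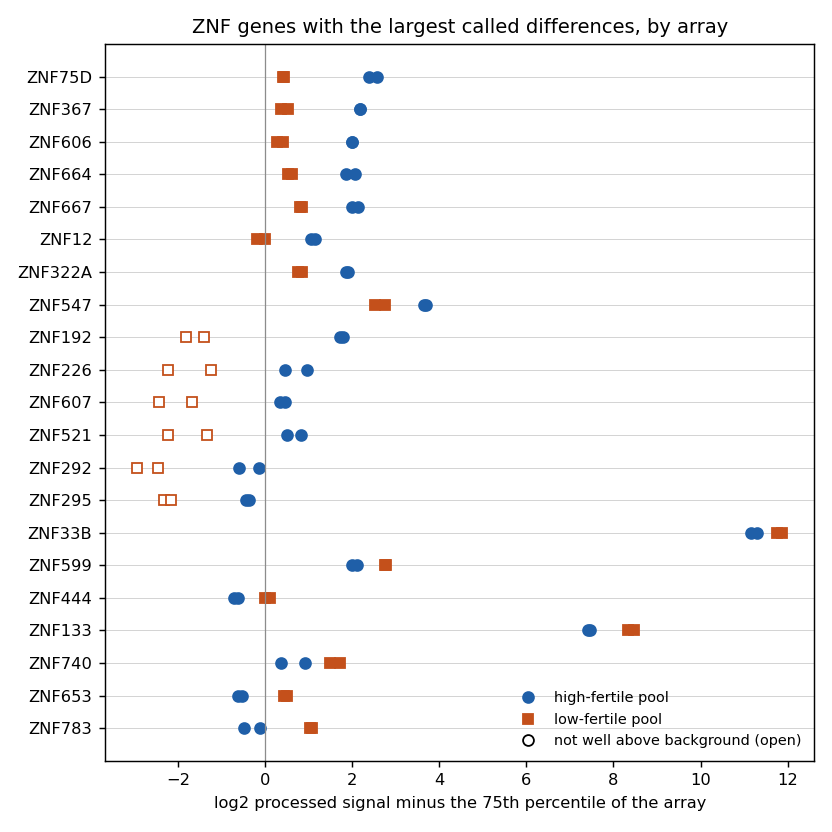
Level of each array (log2 processed signal minus the 75th percentile) for the 8 lower genes detected on every array, the 6 lower genes not well above background in the low-fertile pools (open squares) and the 7 higher genes. High-fertile pools are circles and low-fertile pools squares; the groups stand apart in every gene shown, and ZNF33B and ZNF133 lie far above the rest.

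Of the 134 genes, the low-fertile pools were higher in 7, and all 7 were detected on all 4 arrays. ZNF783 had levels of -0.12 and -0.49 in the high-fertile against 1.07 and 1.02 in the low-fertile pools, a change of 1.35 ± 0.18 (limma, adjusted p = 0.00603). ZNF653, a repressor of the steroidogenic factor NR5A1, was at -0.54 and -0.63 against 0.49 and 0.43 (1.05, adjusted p = 0.00648). ZNF740 had signals of 46.9 and 69.6 against 105 and 108 (0.98, adjusted p = 0.0296). ZNF133, a KRAB repressor and 1 of the brightest ZNF genes, had signals of 6449 and 6331 against 11915 and 11542, a level change of 0.96 ± 0.15 (adjusted p = 0.00840).

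The ZNF133 difference rested on 1 probe, since the other 2 tested probes of the gene gave -0.15 (adjusted p = 0.472, limma) and 0.09 (adjusted p = 0.745) at levels near 0.4 and 0.9. ZNF444, a SCAN-domain protein, was at -0.63 and -0.71 against 0.10 and 0.01 (0.73, limma adjusted p = 0.0185). ZNF599 was at 2.12 and 2.00 against 2.75 and 2.78 (0.71, limma adjusted p = 0.0198), and its other tested probe gave 0.26 and was not called. ZNF33B rose by 0.59 (adjusted p = 0.0380) on its brightest probe, at 11.30 and 11.16 against 11.76 and 11.87. Of these 7 calls, ZNF33B was lost whichever pool was left out, ZNF740 was lost without each pool but high-fertile pool 2, ZNF444 without each but low-fertile pool 2, ZNF599 without each but low-fertile pool 1, and ZNF133 was lost without high-fertile pool 2 (adjusted p = 0.0513). ZNF783 and ZNF653 passed without any 1 pool. With a correction of the signals for the G and C content of the probes, 1 of the 134 genes was higher.

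The brightest ZNF probes need their sequences beside their values. The ZNF266 probe had signals of 125009 and 121112 in the high-fertile against 136984 and 141103 in the low-fertile pools, the 7th highest mean level of all 51282 probes, and was not called (0.26, limma adjusted p = 0.256). The other ZNF266 probe was not tested and had a mean level of -1.01, against 11.83. ZNF33B held the 10th highest mean level, 11.52, on a probe placed on chromosome 2, whereas its other 2 probes, placed on chromosome 28, had mean levels of 7.22 and 4.76 and changes of -0.24 (adjusted p = 0.268) and -0.08 (adjusted p = 0.699). The ZNF674 probe ranked 58th, at 9.95 and 9.97 against 9.50 and 9.65 (-0.39, adjusted p = 0.106), and the other 2 probes of that gene were at -2.50 and -3.17.

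At the stretches shown in capitals these probes matched probes of other genes that were bright as well. Counting any run of 16 bases on either strand, the ZNF266 probe shared one with 5 probes of 3 other gene names, whose median mean level was 6.51, the ZNF33B probe with 2 probes of 2 names (median 9.77) and the ZNF674 probe with 14 probes of 10 names (median 9.92). Over all ZNF probes 119 of 520 (22.9%) shared such a run with another gene name. Among the 12 ZNF probes with a mean level above 4, the number was 7. Whether the signal of these 3 probes came from the named gene alone was not tested. Of the 61 called probes, 20 shared a run of 16 bases (16 lower and 4 higher), and 5 shared a run of 20 bases. ZNF133 and ZNF323, the next in brightness, shared none. ZNF323, now ZSCAN31, fell by 0.53 on the log2 scale (6.71 and 6.60 against 6.08 and 6.16, limma adjusted p = 0.0460), a call lost whichever pool was left out, and its other 2 probes were not tested.

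The name ZNF280B covered the most probes, 8, all detected on all 4 arrays and all with lower values in the low-fertile pools. RefSeq accessions place 3 of these at ZNF280B, on chromosome 17, and 5 at ZNF280BY, the copy of the gene named for the Y chromosome of cattle, on 1 unplaced contig. Of the 8, 7 passed the limma test. The ZNF280BY probes changed by -1.56 (adjusted p = 0.00275), -1.31 (adjusted p = 0.00395), -1.0 (adjusted p = 0.00687), -0.83 (adjusted p = 0.0159) and -0.64 (adjusted p = 0.0281). The ZNF280B probes changed by -1.19 (adjusted p = 0.00507), -0.90 (adjusted p = 0.00921) and -0.49, which was not called (adjusted p = 0.0690). The probe with the largest change was at 4.75 and 4.80 in the high-fertile against 3.20 and 3.24 in the low-fertile pools. Probes of such close copies can catch both transcripts, and some of the 8 overlap, so they are not independent measures. Without either high-fertile pool the brightest of them, the probe that stands for the gene, was no longer called.

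Probes of 1 gene often differed. Of the 37 genes with 2 or more tested probes, 14 had only negative fold changes, 7 only positive ones and 16 both signs, and none was called in both directions. In 6 genes 2 or more probes were called lower: ZNF280B, ZNF75D, ZNF292, ZNF322A, ZNF547 and ZNF383. In none were 2 or more called higher. The same counts were not made over all genes of the array, so whether ZNF genes differ in this was not tested. Some probes of ZNF292, ZNF322A and ZNF383 entered the test through the high-fertile pair alone. ZNF383, which falls outside the rule for named genes and was chosen after its values were seen, had 2 probes at -2.51 and -1.30 (limma adjusted p = 0.00220 and 0.00642). Its brighter probe was at 1.39 and 1.43 in the high-fertile against -1.10 and -1.10 in the low-fertile pools, on 3 arrays well above background.

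Of the 12 ZNF genes listed as regulators of transcription, 8 were tested, 2 were lower and 0 higher (16.6% and 9.53% over all genes tested), and their median was -0.12. ZNF148, also called ZBP-89, which binds GC-rich promoters, had levels of 1.45 and 1.46 against -0.61 and -0.66 and changed by -2.09 ± 0.14 (limma adjusted p = 0.00220), on 3 arrays well above background. ZNF521 is given above. ZNF384, a nuclear matrix transcription factor, was at 0.91 and 0.70 against 1.00 and 1.03 and was not called (0.21, adjusted p = 0.349).

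Of 10 ZNF genes with roles in chromatin, 6 were tested and 0 were called in either direction on their brightest probe (16.6% lower and 9.53% higher over all genes), with a median of -0.04. ZNF518A was at -0.19 (limma adjusted p = 0.380) and ZNF592, a member of a chromatin reader complex, at 0.16 (adjusted p = 0.442). ZNF445, which helps to keep genomic imprints, was at -0.07 and -0.21 against -0.28 and -0.27 (-0.13, adjusted p = 0.531). ZNF274, which brings SETDB1 to the ends of other ZNF genes, was not called on its brightest probe (-0.03, adjusted p = 0.933). The probe of ZNF274 shown above was well above background in the low-fertile pools alone, through which it entered the test, at -0.62 and -1.14 against 0.20 and 0.60. It was at least 2.43-fold higher there, taken against its own high-fertile signals (limma adjusted p = 0.0160).

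Among 10 ZNF genes that act on RNA, ribosomes or cell division, 5 were tested, 2 were lower and 0 higher (16.6% and 9.53% over all genes), with a median of -0.32. ZNF326, a subunit of a complex that couples splicing to transcription, was at 0.56 and 0.58 against -0.21 and -0.08 (-0.72, limma adjusted p = 0.0196). ZNF330, a nucleolar protein, was at 0.08 and 0.45 against -0.73 and -0.38 (-0.81, limma adjusted p = 0.0386). It was well above background on 3 arrays and entered the test through the high-fertile pair alone. The other tested ZNF330 probe gave -0.32 and was not called. ZNF593, a ribosome assembly factor, was not called (0.19, adjusted p = 0.414). Both calls were lost when either high-fertile pool or low-fertile pool 1 was left out.

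Of the 4 ZNF genes listed for the germ line, 3 were tested and 1 was lower (16.6% over all genes). The lower one, ZNF35, was well above background on 3 arrays and entered the test through the high-fertile pair alone. ZNF35 was at 0.74 and 0.55 against -0.17 and -0.65 (-1.05, limma adjusted p = 0.0183), a call lost without either high-fertile pool. ZNF165, a cancer-testis antigen with a SCAN domain, was at -0.68 and -0.44 against -0.77 and -0.90 (-0.28, adjusted p = 0.248). ZNF318, first described as a testicular zinc finger protein, was at -0.60 and -0.21 against -0.57 and -0.55 (-0.15, adjusted p = 0.559), with overlapping groups.

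Chromosome 18 held more ZNF probes than any other, 145 (27.9%) of 74 genes, as the files place them on Btau_3.1. Of these, 50 (34.5%) were tested, against 49.8% of all probes on that chromosome well above background in both pools of a group. ZNF probes there were lower in 15 cases (30.0%) and higher in 5 (10%), against 14.5% and 9.53% of all tested probes of the chromosome. Elsewhere 35 of 133 were lower (26.3%) and 6 higher (4.51%). Among those detected on 4 arrays, 3 of 27 on chromosome 18 were lower and 4 higher, and elsewhere 16 and 5 of 76 (9.90% and 13.2% of all probes so detected). By gene, 12 of 36 on the chromosome were lower and 2 higher (16.6% and 9.53% of all genes).

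The tested genes of chromosome 18 fell into stretches when split at gaps of over 2 megabases, a split made after the values were seen. From ZNF23 to ZNF507 (chr18:38721799-42292538), 2 of 3 ZNF genes were lower (ZNF23 and ZNF536), against 33.3% of 6 other probes. Both were well above background on 3 arrays and entered the test through the high-fertile pair alone. From ZNF599 to ZNF607 (chr18:44976205-47133337), 4 of 9 ZNF genes were lower and 1 higher. The lower ones were ZNF208, ZNF829, ZNF383 and ZNF607, none of them detected on all 4 arrays. Of 74 tested probes of other genes in the same stretch, 8.11% were lower and 8.11% higher. From ZNF526 to ZNF180 (chr18:50795889-52079658), 3 of 6 ZNF genes were lower (ZNF283, ZNF226 and ZNF227), against 15.0% of 40 other probes. Those 3 were well above background on the high-fertile arrays alone, and the other 3, detected on all 4 arrays, were not called. From ZNF614 to ZNF132 (chr18:57758404-66015292), 3 of 16 were lower (ZNF667, ZNF547 and ZNF606) and 1 higher (ZNF444), against 27.2% and 10.8% of 158 other probes. Neighbouring genes therefore did not share 1 direction along the chromosome. These shares were not tested.

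**Figure D4:**
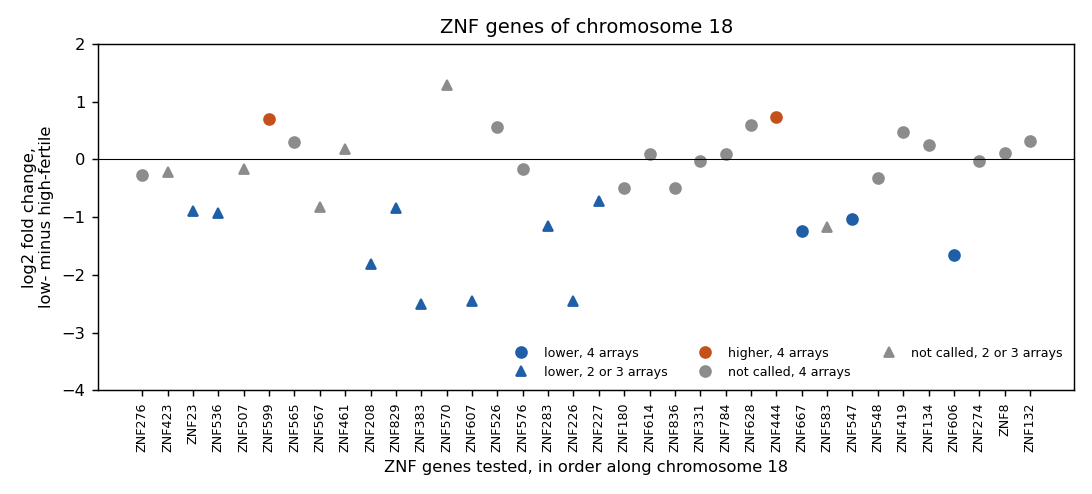
Log2 fold change, low-fertile minus high-fertile, of the 36 tested ZNF genes of chromosome 18 in their order along it, each read from its brightest tested probe. Blue marks genes called lower (12), orange genes called higher (2) and grey genes not called; circles were well above background on 4 arrays and triangles on 2 or 3.

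The G and C content of the probes moved with the calls. The median was 40.0% for the ZNF probes called lower, 55.0% for those called higher and 45.0% for those not called. Among ZNF probes under 40% G and C, 19 of 40 tested were lower (47.5%) and 1 higher (2.5%), against 50% lower and 3.82% higher of all tested probes of that content. From 40% to under 50%, 27 of 84 ZNF probes were lower (32.1%, against 20.9%) and 2 higher (2.38%, against 5.25%). At 50% and above, 4 of 59 were lower (6.78%, against 2.97%) and 8 higher (13.6%, against 15.6%). The ZNF medians in the 3 bands were -0.76, -0.31 and 0.21, against -0.74, -0.15 and 0.23 for all tested probes. With a correction of each array for G and C content, 37 ZNF probes were lower and 1 higher, with 36 of the 61 calls kept, and the median of all tested probes moved to -0.21. What part base composition has in the single calls was not tested.

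**Figure D5:**
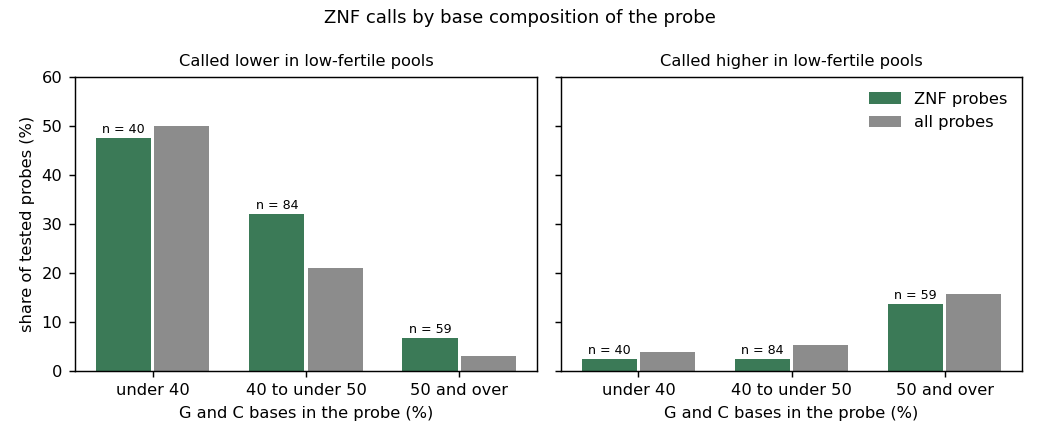
Share of tested probes (percent) called lower (left) and higher (right) in the low-fertile pools, by the share of G and C bases in the probe, for ZNF probes (green, number tested above the bar) and all tested probes (grey). The share called lower falls from 47.5% to 6.78% of ZNF probes as the content rises, as it does among all probes.

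The partners of the KRAB domain were read from a list of 22 genes, of which 13 were tested, 3 lower and 1 higher (16.6% and 9.53% over all genes). TRIM28, the co-repressor that KRAB domains bind, was at 1.33 and 0.66 against 0.95 and 1.44, with overlapping groups (0.20, limma adjusted p = 0.624). SETDB1, the methyltransferase it recruits, was at -0.46 and 0.07 against -0.23 and -0.66 (-0.25, adjusted p = 0.477). Of the heterochromatin proteins, CBX3 was lower (-1.12, adjusted p = 0.00619) and CBX1 was lower (-0.57, adjusted p = 0.0376), whereas CBX5 was higher (1.00, adjusted p = 0.0147). HDAC1, a histone deacetylase, was lower (-0.60, adjusted p = 0.0391).

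Other zinc finger families gave calls of both kinds. Of the 25 tested ZBTB genes, which pair fingers with a BTB domain, 5 were lower and 1 higher. Among the lower were ZBTB20 at -1.29 and ZBTB37 at -0.65 (limma adjusted p = 0.00773 and 0.0241), each on 3 arrays well above background. None of the called ZBTB genes was well above background on all 4 arrays. The lower ones entered the test through the high-fertile pair and the higher one through the low-fertile pair, in which they were high. Of 9 KLF genes 4 were lower, among them KLF6 (-1.32, adjusted p = 0.00454) and KLF3 (-0.56, adjusted p = 0.0445), and KLF9 was higher (0.62, adjusted p = 0.0291). Of 9 ZC3H genes, whose fingers bind RNA, 3 were lower and 2 higher. The ZFP list gave 2 lower of 4, the ZIC and ZFX list 2 of 3, the ZSCAN list 1 of 4 and the ZCCHC list 1 of 9. Apart from ZCCHC17, the genes called on these lists entered the test through the high-fertile pair alone. On the brightest probe of each gene, none was called among 13 ZDHHC genes, which encode palmitoyl transferases, nor among 3 ZKSCAN, 3 ZMYM and 2 ZMAT genes. Of the 18 tested ZDHHC probes 3 were lower, beside 17.6% of all tested probes. Together with the list of KRAB partners, the 12 lists held 97 tested genes, of which 21 were lower (21.6%, against 16.6% of all genes) and 5 higher (5.15%, against 9.53%). Most of the lower ones were not well above background on all 4 arrays. They entered the test through the high-fertile pair, in which they were high. Counts with the filter on all 4 arrays are given below.

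Markers of cell types moved with the groups in part, beside 9.53% of all genes called higher and 16.6% lower. Of 10 sperm markers, 4 were tested (PRM1, TNP1, ACR and ODF1), and AKAP4 and SMCP were well above background on no array. PRM1, the protamine that packs sperm DNA, was higher in the low-fertile pools (0.67, limma adjusted p = 0.0231), whereas TNP1 (-0.05), ACR (0.03) and ODF1 (-0.18) were not called. Of 7 leukocyte markers, 6 were tested and PTPRC was higher (0.78, adjusted p = 0.0160), with CD3E well above background on no array. The summed signal of the leukocyte list was 21292 and 20246 in the high-fertile against 28539 and 27667 in the low-fertile pools. Most of it came from PTPRC and from LYZ, whose signals were 13584 and 12423 against 16233 and 15621 and which was not called (0.38, adjusted p = 0.117), and ITGB2 had a log2 fold change of -0.09. The summed signals were 892 and 764 against 700 and 718 for the sperm list, in which PRM2 gave 180 in high-fertile pool 1 and 14.6, 14.0 and 9.58 on the other arrays. They were 848 and 845 against 895 and 883 for the epithelial list. The red cell list summed to 184 and 305 against 226 and 227, and the testicular list to 457 and 585 against 559 and 574. HBB of the red cell list (1.24, limma adjusted p = 0.0117) and STAR of the testicular list (0.79, adjusted p = 0.0212) were higher too. HBB was well above background on 3 arrays, so it entered the test through 1 pair of pools alone. The other tested genes of these lists, HBA (-0.17), INSL3 (-0.24) and AMH (0.09), were not called. None of the 4 tested epithelial genes was called. The part of other cells in the ZNF calls was not tested.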

How the data were processed

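Sperm RNA of 2 high-fertile and 2 low-fertile pools was measured on 4 one-dye arrays. Image extraction by the authors used Feature Extraction 11.5.1.1, and they deposited linear intensity values, background-subtracted and with a surrogate for spots not above it. They also deposited a table of log2 values, shifted by each array's 75th percentile, used here as an alternative. Each scanner column belongs to 1 pool by its file.

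Outlier spots were left out, the log2 processed signals of a probe averaged, and the 75th percentile subtracted, at signals of 36.7, 37.1, 37.0 and 32.7. Detection marks needed a share of 0.5 or more of the kept spots. Low-fertile pools were compared with high-fertile pools in limma 3.58.1 (R 4.3.3; prior of 3.52 degrees of freedom) over 21028 probes, each well above background in both pools of a group, with Benjamini-Hochberg adjustment over all of them, and a gene was read from its brightest tested probe. The fit was tested on simulated data. The number of arrays limits the precision, and p-values measure the spread between pools. Other steps used Python 3.11.15 and pandas 2.3.3. Current symbols come from RefSeq (assembly ARS-UCD2.0) by accession, for 166 of 255 ZNF genes, of which 15 have another current symbol. Coordinates are those of the files, and sequences those of the probes in the files.

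The ZNF genes, lists and tests were chosen with earlier results of these data known. Named were the 8 lower and 8 higher genes (7 existed) with the largest change among those called, detected on 4 arrays and with groups apart, the 6 with the largest lower bound of the fold, the 6 brightest, genes called in both directions (none), and up to 3 a role list. The alternatives were 19 in number. A slide or scan block could not be fitted, since the arrays share 1 slide. KRAB and SCAN domains were not read from proteins, which were not used here.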

Additional observations from a re-analysis of the deposited data

How the results depend on the processing

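With the filter on all 4 arrays, the ZNF probes called were 24 lower and 17 higher, the ZNF genes 17 and 14, and the genes of the other lists 7 and 8. The share lower among called ZNF probes was then 58.5%, against 82.0%, and among all calls 37.4%, against 65.5%. Scaled to spike-ins, where all tested probes had a median of -0.39, they were 81 and 5, 57 and 3, and 33 and 2 (94.2% of ZNF and 92.4% of all calls lower). With the G and C correction, the higher ZNF probes and genes were 1 and 1 (97.4% of ZNF and 86.7% of all calls lower), and the other lists had 11 lower and 1 higher. With normexp background, higher ZNF probes, ZNF genes and other genes were 18, 13 and 8, and with an intensity trend 11 ZNF genes and 9 other genes were higher. The methods' t-test, no filter on dim probes and the weaker detection mark gave 0 calls throughout in limma or the t-test with adjustment. Unadjusted p under 0.05 was then reached by 63, 99 and 105 ZNF probes, against 85.

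Leaving out 1 pool gave 30 to 53 lower and 4 to 10 higher ZNF probes, 18 to 35 and 3 to 6 ZNF genes, and 9 to 18 and 2 to 4 other genes. The ZNF median of -0.16 then lay between -0.20 and -0.16. It was -0.29 with the G and C correction, -0.12 with the percentile over detected probes, 0.040 with the filter on all 4 arrays, 0.043 with no filter, -0.10 with normexp, -0.54 with spike-ins and -0.094 with the weaker mark. ZNF probes counted as detected were 399 under that mark and 103 on all 4 arrays.

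The direction turned for ZNF33B with the median over its probes (-0.24), and for these genes not called: ZNF266 (quantile normalization -0.18, spike-ins -0.12), ZNF384 (G and C correction -0.17, median over probes -0.038, spike-ins -0.17), ZNF592 (spike-ins -0.22), ZNF445 (normexp 0.024), ZNF593 (G and C correction -0.19, spike-ins -0.20), ZNF165 (normexp 0.020) and ZNF318 (0.041 without high-fertile pool 2, the end of a range from -0.35 over the pools left out). The cause was not tested. No called ZNF probe changed sign in the probe-level alternatives run. The replicate block gave 50 lower and 11 higher, with 58 of the 61 calls kept. The numbers in the labels do not pair the pools (r = 0.0054 between deviations over 21023 probes, which are not independent). A split of genes by KRAB or SCAN domain was not run. Signals near background limit the dim ZNF genes most, above all in low-fertile pool 2.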

Other observations

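Several ZNF genes outside the rule for named genes were called as well, and these were picked after their values were seen. On a probe that was not the brightest of its gene, ZNF784 (1.25, limma adjusted p = 0.0161) and ZNF628 (1.00, adjusted p = 0.00756) of chromosome 18 were higher in the low-fertile pools, both on all 4 arrays, while their brightest probes were not called (0.09 and 0.60, adjusted p = 0.706 and 0.0558). ZNF79 was at least 1.97-fold higher on such a probe, taken against its own high-fertile signals. ZNF692 was lower on a probe well above background on 3 arrays (-2.16, adjusted p = 0.00605), at 1.01 and 1.42 against -0.58 and -1.31, and its other tested probe gave 0.37. ZNF419 had 1 probe that was at least 2.80-fold lower and a brighter one at 0.47 that was not called (adjusted p = 0.0796).

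ZNF317, at 2.35 and 2.39 against 1.40 and 1.35 (-1.0, limma adjusted p = 0.00695), and ZNF205, at 0.73 and 0.99 against 0.13 and 0.04 (-0.78, adjusted p = 0.0218), were lower on all 4 arrays. ZNF711 was lower on 3 arrays (-0.81, adjusted p = 0.0165). The largest increase among all tested ZNF probes, 1.86 on the log2 scale for a probe of ZNF219, did not pass the test. A probe of ZNF570 stood at -0.50 and 0.13 for high-fertile RNA, was far higher in low-fertile pool 1 (2.98) than in the other low-fertile pool (-0.77), and was not called (1.29, adjusted p = 0.437). Its spot on the array of low-fertile pool 1 lay on a bright patch. Of the 520 ZNF probes 19 lay on bright patches of an array, 2 of them called, and with such spots left out 57 ZNF probes were lower and 13 higher.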
